A study of Mus musculus with 3 samples.

Results

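Mouse genes with 10 or more accessible regions were examined in basal-derived prostate organoids by ATAC-seq, an assay in which a transposase inserts sequencing adaptors where DNA is open. The genes were chosen by the deposited number of merged regions assigned to each gene, a merged region being a stretch where peaks called in any library were joined. A further library, not used here, also contributed peaks to these regions. By this rule 623 of 18890 listed genes were taken, or 3.30%. All organoids were grown from wild-type primary basal cells and kept for 7 days in 10 µM UK5099, in 20 mM sodium lactate or in vehicle. UK5099 inhibits the mitochondrial pyruvate carrier, through which pyruvate enters mitochondria, and lactate is made from pyruvate in the cytosol. There was 1 library per treatment. The differences below therefore have no replicate check, no test between treatments could be run, and every value describes these libraries.

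Open chromatin lies at promoters, where transcription starts, and at enhancers, which bind transcription factors and often sit in introns far from the start. A long gene offers more intron sequence in which enhancers of that gene or of its neighbours can lie. Prostate basal cells rest on the basement membrane, which they hold through integrins and hemidesmosomes, and depend on the transcription factor p63, the product of Trp63. AP-1, a dimer of Fos and Jun proteins, is a common occupant of enhancers in epithelial cells.

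The sequences below show the kinds of region the results turn on, some with a called peak in all libraries and others where only some libraries had one. Each is 300 bases around the midpoint of the called peaks of a region, on the plus strand of GRCm38 (mm10), read from the RefSeq copy of the GRCm38.p6 genome, and each lies in an intron of its gene. Capitals mark matches on either strand to AP-1 (TGANTCA), TEAD (GGAATG), GRHL (AACNNGTT) or KLF (GGGNGTGG) letters. A match is a description of the letters and shows no binding.
Foxp1, chr6:98949930-98950229, called in all 3 libraries: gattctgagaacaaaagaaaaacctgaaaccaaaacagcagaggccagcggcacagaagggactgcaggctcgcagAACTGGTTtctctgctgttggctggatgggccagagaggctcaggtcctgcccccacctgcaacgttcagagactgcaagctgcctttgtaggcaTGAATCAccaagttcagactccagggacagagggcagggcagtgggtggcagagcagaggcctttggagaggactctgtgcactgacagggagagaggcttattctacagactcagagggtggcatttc
Foxp1, chr6:99401866-99402165, called in the UK5099 and lactate libraries: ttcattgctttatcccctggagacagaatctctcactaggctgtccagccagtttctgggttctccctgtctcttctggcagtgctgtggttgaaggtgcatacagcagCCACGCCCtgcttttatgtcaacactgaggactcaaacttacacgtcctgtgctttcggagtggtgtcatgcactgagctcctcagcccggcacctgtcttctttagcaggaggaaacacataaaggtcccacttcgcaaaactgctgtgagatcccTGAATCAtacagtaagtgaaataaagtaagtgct
Trp63, chr16:25780010-25780309, called in all 3 libraries: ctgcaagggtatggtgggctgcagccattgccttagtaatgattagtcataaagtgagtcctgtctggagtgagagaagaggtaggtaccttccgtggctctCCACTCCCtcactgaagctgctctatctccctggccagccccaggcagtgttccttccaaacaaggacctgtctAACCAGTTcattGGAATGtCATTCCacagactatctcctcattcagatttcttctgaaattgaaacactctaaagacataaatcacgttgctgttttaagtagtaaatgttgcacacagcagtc
Alk, chr17:72299626-72299925, called in the UK5099 library: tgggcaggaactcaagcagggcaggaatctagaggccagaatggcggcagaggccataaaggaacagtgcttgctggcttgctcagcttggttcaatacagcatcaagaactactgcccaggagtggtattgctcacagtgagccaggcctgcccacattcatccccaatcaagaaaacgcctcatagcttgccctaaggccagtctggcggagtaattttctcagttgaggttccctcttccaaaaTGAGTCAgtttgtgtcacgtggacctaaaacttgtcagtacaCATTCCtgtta
Edar, chr10:58618570-58618869, called in the lactate library: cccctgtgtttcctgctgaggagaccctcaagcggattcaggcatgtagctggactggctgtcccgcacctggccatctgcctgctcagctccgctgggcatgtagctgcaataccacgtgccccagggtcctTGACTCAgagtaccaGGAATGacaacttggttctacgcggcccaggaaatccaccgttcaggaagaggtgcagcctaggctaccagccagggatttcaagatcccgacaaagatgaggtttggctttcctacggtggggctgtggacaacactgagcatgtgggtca
Iqgap2, chr13:95888330-95888629, called in the lactate and vehicle libraries: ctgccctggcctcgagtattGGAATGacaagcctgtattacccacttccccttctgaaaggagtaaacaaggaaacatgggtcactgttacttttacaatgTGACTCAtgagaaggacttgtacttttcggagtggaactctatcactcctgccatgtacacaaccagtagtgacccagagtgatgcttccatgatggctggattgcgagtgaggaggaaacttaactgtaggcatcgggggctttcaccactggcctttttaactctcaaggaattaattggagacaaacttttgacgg
Both Foxp1 regions hold TGAATCA, the Alk region TGAGTCA, and the Edar and Iqgap2 regions TGACTCA, all AP-1 letters. The Trp63 region holds no AP-1 letters and has 2 TEAD matches, 1 GRHL match and 1 KLF match. These regions were picked for where their peaks were called and for their motif matches, after the data had been seen.

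The deposited measure is the average peak height of a gene, which is the stacked read coverage at the tallest point of each merged region, averaged over all merged regions of that gene. Being an average, it does not grow with the number of regions as a sum would. The regions averaged are those where some library, treated or not, had a called peak, and the rule counts the same regions. Heights and their ratios are therefore not independent of the rule. Relative depth was inferred from the step of the scaled heights, on the assumption that the scaling brought the libraries to equal depth. Inferred in this way, depth relative to UK5099 was 2.12 in lactate and 1.74 in vehicle. Behind the heights of a gene with 10 or more regions, called a multi-region gene here, stood a median of 706 stacked reads in UK5099, 1551 in lactate and 1042 in vehicle, whereas over all genes the medians were 154, 330 and 233. The counting intervals given below are exact conditional (Clopper-Pearson) 95% intervals from stacked reads, and they cover counting error only. In a bulk library a change in the share of a cell type and a change in accessibility per cell cannot be told apart. The 10 basal markers fixed for this purpose had a median height of 66.8 in UK5099, 67.7 in lactate and 48.5 in vehicle, and the 9 measured luminal markers 45.8, 62.3 and 51.9. The basal median thus lay above the luminal one in both treated libraries and not in vehicle, but the ranges overlapped, at 40.7 to 115 for basal and 13 to 74 for luminal markers in UK5099, 36.2 to 101 and 23.6 to 96.8 in lactate, and 29.2 to 73.2 and 19.1 to 90.3 in vehicle. These are heights of different genes. No marker of either list was at 0. The medians of the 6 stromal, 5 endothelial and 4 immune markers lay between 31.1 and 44.3. The part of cell type in the results below was not tested.

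The number of regions ran from 10 to 42 per gene. There were 422 genes with 10 to 14 regions, 132 with 15 to 19 and 69 with 20 or more, of which 8 had at least 30. The 623 genes held 14.8% of the 59104 region entries and 19.5% of the 103361 called peaks. Just inside the limit, 128 genes had 10 regions and median heights of 50.9 in UK5099, 55.3 in lactate and 47.4 in vehicle. Just outside it, 170 genes had 9 regions and median heights of 54.4, 55.9 and 45.7. The genes at the limit were thus much alike in height on either side.

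Most of the multi-region genes were long. Their median length was 166 kb, against 17.0 kb over all genes, and 473 of them spanned 100 kb or more. Length did not decide membership alone, because only 23.1% of the 2052 genes of 100 kb or more had 10 regions, and 1579 such genes had fewer. Under 100 kb, 0.891% of genes had 10 or more regions, 150 genes in all. Per 100 kb, counting the gene and a margin of 10 kb on each side, the long genes with 10 or more regions had a median of 6.25 regions. In the long genes with fewer it was 1.67. These groups are split by number of regions, so a difference in this direction follows from the rule. The shortest members were D830036C21Rik at 22108 bp, Map7d1, a microtubule-associated protein gene, at 24152 bp, and Plxnb2, a semaphorin receptor gene, at 25239 bp, which were named after their lengths were seen. The most thinly covered was Dlg2, a postsynaptic scaffold gene with 10 regions in 1358460 bp, named in the same way.

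Nav2, a neuron navigator gene on chromosome 7 of mm10 (48959073 to 49610088, plus strand), had the most regions, 42. Its average peak height was 55.3 in UK5099, 62.8 in lactate and 52.0 in vehicle. Foxp1, a forkhead transcription factor gene on chromosome 6 (98925342 to 99435345, minus strand), came next with 40 regions and heights of 41.3, 47.4 and 31.8. The treated libraries were above vehicle for both genes, and for Foxp1 by a larger margin. Pde4d, a cyclic AMP phosphodiesterase gene with 37 regions, had heights of 44.0 in UK5099, 46.6 in lactate and 40.1 in vehicle. Rad51b, a homologous recombination gene with 35 regions, had heights of 58.7, 60.5 and 45.6 in the same order. Vehicle was the lowest library in these genes too.

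Macrod2, which encodes an ADP-ribose hydrolase, and Zmiz1, a transcriptional coactivator gene, each had 34 regions. Macrod2 had heights of 48.9 in UK5099, 47.1 in lactate and 35.8 in vehicle, and Zmiz1 of 62.4, 63.5 and 51.7. Atxn1, the ataxin-1 gene with 32 regions, had heights of 46.5, 48.5 and 42.6. Rbms3, an RNA-binding protein gene with 31 regions, stood apart from its neighbours in this order because UK5099 was clearly the highest, at 42.5 against 34.5 in lactate and 28.4 in vehicle. Maml3, a coactivator of Notch with 28 regions, had heights of 42.0, 44.6 and 37.8, and Rere, a transcriptional corepressor gene also with 28, had 56.5, 64.1 and 46.9. The RIKEN gene 2010111I01Rik with 28 regions had 64.7, 62.7 and 50.6. Arid1b, a subunit gene of the BAF chromatin remodelling complex with 27 regions, had 58.2, 61.4 and 48.6. In every one of these 12 genes vehicle was the lowest of the 3 libraries. This order was common, since 522 of the 623 multi-region genes were above vehicle in both treated libraries. The share of all genes above vehicle in both was not counted, so the 522 cannot be set against it. Taken 1 treatment at a time, 85.4% of the multi-region genes were above vehicle in UK5099 and 94.7% in lactate. Of all genes, 75.7% and 83.1% were. The median ratio of UK5099 over vehicle was 1.15 over all genes. Nav2, Pde4d, Atxn1 and Maml3 lay below it, at 1.06, 1.10, 1.09 and 1.11, and the rest of the 12 lay above it. Arid1b ties with Lpp and Prkce in having 27 regions and was taken first by alphabetical order. Prkce, a protein kinase C gene, had heights of 34.4 in UK5099, 41.3 in lactate and 34.7 in vehicle, so that UK5099 and not vehicle was its lowest library.

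**Figure D1:**
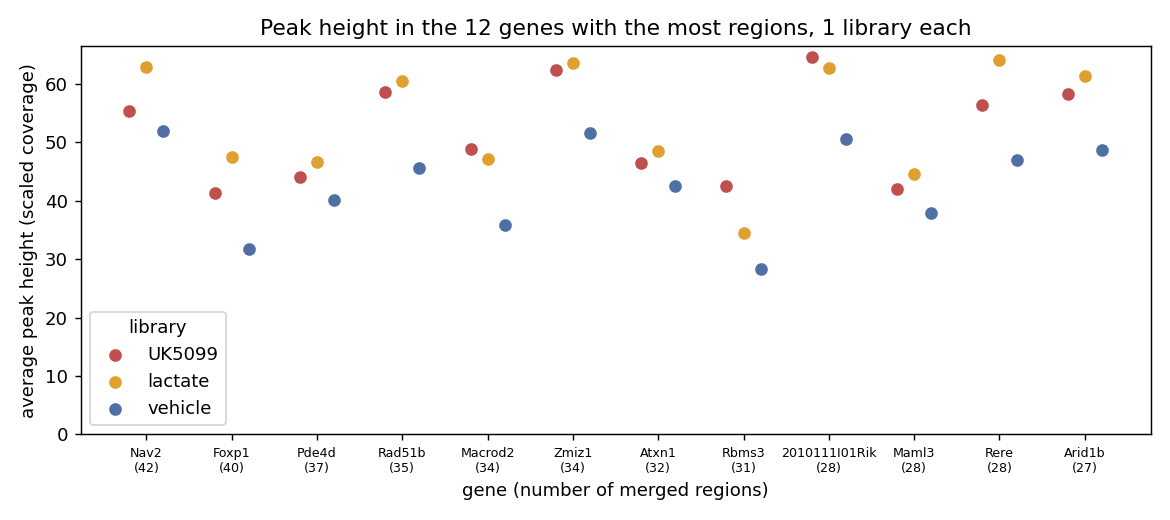
Average peak height (stacked read coverage) of the 12 genes with most regions, with 1 point per library for UK5099, lactate and vehicle. The vehicle point is the lowest for each of the 12 genes, from 28.4 in Rbms3 to 52.0 in Nav2, and Lpp and Prkce, which tie with Arid1b at 27 regions, are not drawn. Vehicle was below both treated libraries in 522 of the 623 multi-region genes, a count not made over all genes.

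Across all 623 genes the heights were a little lower than those of the table as a whole. Their median was 52.2 in UK5099, 54.9 in lactate and 45.7 in vehicle, against 58.7, 60.3 and 51.3 over all genes. The long genes with under 10 regions were lower still, at 41.8, 42.6 and 37.9. The 150 members under 100 kb had the highest medians of these groups, 68.2 in UK5099, 70.0 in lactate and 54.5 in vehicle. In UK5099 the heights ran from 16.2 at Plcb1 to 145 at Zdhhc18, a palmitoyltransferase gene named after its value was seen.

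For UK5099 over vehicle the median height ratio of the multi-region genes was 1.18, against 1.15 over all genes. The ratio was 1.5 or more in 30 of 623 genes, or 4.82%, where 9.05% of all genes reached that limit, and 0.5 or less in 0 genes, where 1.36% of all genes did. For lactate over vehicle the median was 1.22, against 1.18 over all genes, with 12 genes, or 1.93%, at 1.5 or more against 6.07% of all genes, and 0 at 0.5 or less against 0.513%. For UK5099 over lactate the median was 0.97, against 0.98 over all genes, with 2 genes, or 0.321%, at 1.5 or more against 3.71%, and 0 at 0.5 or less against 1.43%. The shares past either limit were thus below those of the whole table in every comparison. Both treated libraries share the vehicle library as their denominator.

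The spread of the ratios narrowed as the number of regions went up. For UK5099 over vehicle the standard deviation over genes of the log2 ratio was 0.56 in the 5131 genes with 1 region, 0.27 in the 829 genes with 7 to 9, 0.25 in the 623 genes and 0.19 in the 69 genes with 20 or more. For lactate over vehicle it was 0.42, 0.19, 0.17 and 0.14 in the same groups, and for UK5099 over lactate 0.52, 0.23, 0.21 and 0.14. Each height is a mean over the regions of the gene, and the number of stacked reads goes up with them. The part of this averaging in the narrowing was not tested. The extremes among the 623 genes were 0.64 and 2.31 for UK5099 over vehicle, 0.64 and 1.62 for lactate over vehicle, and 0.62 and 1.92 for UK5099 over lactate.

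**Figure D2:**
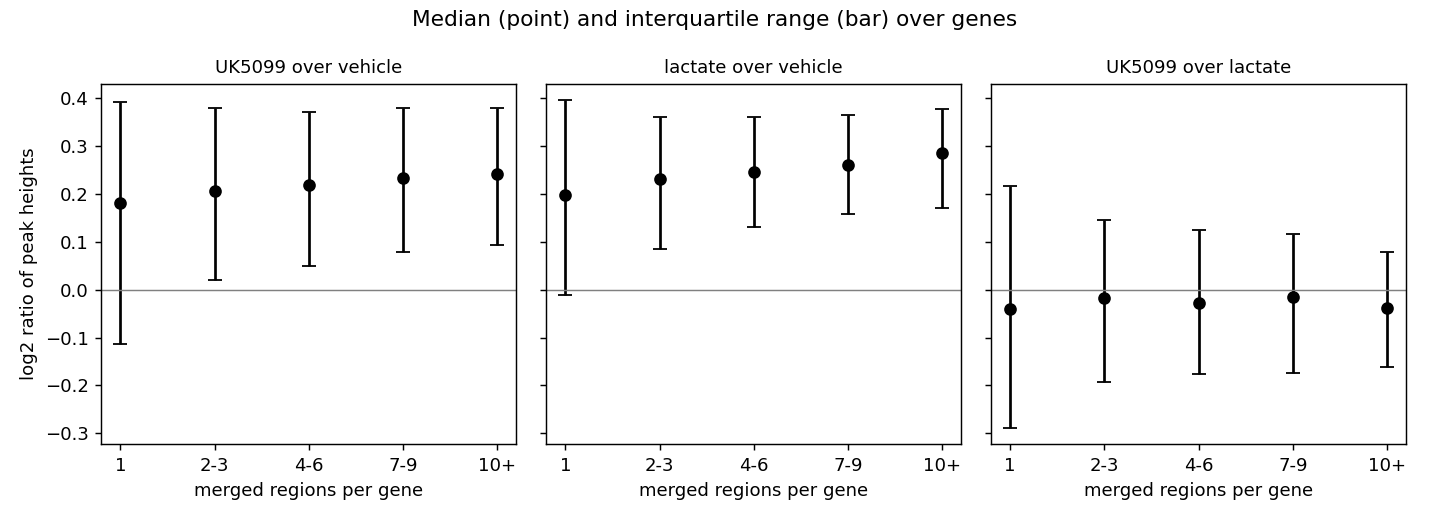
Log2 ratio of average peak heights by number of merged regions per gene, in 1 panel per comparison, with the median as a point and the interquartile range over genes as a bar. The range is widest for genes with 1 region and narrowest for those with 10 or more, whose median ratios are 1.18, 1.22 and 0.97 before taking logs.

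Of the 623 genes, 532, or 85.4%, had a ratio above 1 for UK5099 over vehicle, where 75.7% of all genes did. For lactate over vehicle 590, or 94.7%, did, against 83.1% of all genes. The lower bound of the counting interval was above 1 in 422 genes, or 67.7%, for UK5099 over vehicle, against 37.3% of all genes, and in 510, or 81.9%, for lactate over vehicle, against 47.7%. The upper bound was below 1 in 35 and 14 genes, or 5.62% and 2.25%, against 5.45% and 2.89% of all genes. The multi-region genes have more stacked reads and so narrower intervals than the median gene, and the part of this in the difference between these shares was not tested. The deposited scaling places the median of all genes above 1 in both comparisons, so these counts move with it. Relative to the median ratio of all genes, the interval lay wholly above in 193 and wholly below in 134 of the 623 genes for UK5099 over vehicle, and in 204 and 112 for lactate over vehicle. Measured in this way the multi-region genes fell on both sides, with 57.9% of them above the median gene in UK5099 and 64.5% in lactate.

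The largest ratios of UK5099 over vehicle were in the Ugt1a cluster on chromosome 1 (Ugt1a10 at 88055411 to 88220002, plus strand), whose genes encode enzymes that attach glucuronic acid to bilirubin, steroids and drugs. Ugt1a10, Ugt1a9, Ugt1a7c and Ugt1a6b overlap and share the same 14 regions and the same heights, 55.3 in UK5099, 37.3 in lactate and 23.9 in vehicle, so they are 1 measurement. With genes of identical heights taken once, the 30 and 12 genes at 1.5 or more over vehicle become 27 in UK5099 and 9 in lactate. The ratio to vehicle was 2.31 (counting interval 2.07 to 2.58) in UK5099 and 1.56 (1.41 to 1.72) in lactate. Ugt1a6a, which lies inside the same stretch and had 10 regions, had heights of 44.5, 31.4 and 24.1 and a ratio of 1.84 in UK5099. Of the 13 regions rebuilt for Ugt1a10 from peak positions, 11 lay within 1 kb of an annotated transcript start, whereas 3 of 40 Foxp1 regions did.

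Alk, a receptor tyrosine kinase gene with 12 regions on chromosome 17 (71868988 to 72604307, minus strand), was high in UK5099 alone, with heights of 38.1 in UK5099, 19.8 in lactate and 20.7 in vehicle. Its ratio was 1.84 (1.61 to 2.104) over vehicle and 1.92 (1.69 to 2.18) over lactate, the highest of the UK5099 over lactate comparison. Its peaks behaved in the same way, with 12 called in UK5099, 6 in lactate and 8 in vehicle, and 4 of its 12 rebuilt regions were called only in UK5099. Robo1, a receptor for Slit guidance proteins with 18 regions, had heights of 44.8, 31.9 and 25.5. Enox1, an ecto-NOX disulfide-thiol exchanger gene, had 39.6, 32.6 and 22.8, and Ptpre, a protein tyrosine phosphatase gene, had 57.4, 43.2 and 33.7. In these 3 genes lactate lay between UK5099 and vehicle.

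At the low end of UK5099 over vehicle stood Plcb1, which encodes phospholipase C beta 1, with heights of 16.2 in UK5099, 24.1 in lactate and 25.3 in vehicle, a ratio of 0.64 (0.53 to 0.77). Sorbs2, an actin-linked adaptor gene, had 22.4, 33.8 and 34.5, and Iqgap2, a scaffold protein gene on chromosome 13 (95627177 to 95891922, minus strand), had 23.6, 38.3 and 35.6. In these 3 genes the UK5099 value was low and the lactate value was near that of vehicle. Cdk14, a cyclin-dependent kinase gene, showed the same arrangement with 20.7, 28.7 and 29.4. Rap1gap2, which encodes an inactivator of the small GTPase Rap1, had 39.2, 49.5 and 55.1, and Glis1, a GLI-similar zinc finger gene, had 31.6, 33.4 and 44.2. Rap1gap2 and Glis1 were below vehicle in both treated libraries.

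For lactate over vehicle the highest ratio was at Edar (chromosome 10, 58600788 to 58675696, minus strand), the receptor for ectodysplasin, which is needed for hair, teeth and glands. Its heights were 40.9 in UK5099, 46.9 in lactate and 28.9 in vehicle, a lactate ratio of 1.62 (1.46 to 1.81). Galnt18, a gene of the family that starts O-linked glycosylation, had 52.0 in lactate and 32.04 in vehicle, and Ptprn2, a receptor tyrosine phosphatase gene, had 49.6 in lactate and 31.0 in vehicle. These genes were also above vehicle in UK5099, at 43.4 and 43.5. Fancc, a gene of DNA crosslink repair, had 53.5 in lactate against 33.9 in vehicle, and Nrg2, a ligand of ErbB receptors, 33.3 against 22.0.

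The lowest lactate ratio was at Adam12, a metalloprotease gene, at 0.64 (0.57 to 0.72), with heights of 30.9 in UK5099, 20.9 in lactate and 32.8 in vehicle. Ccbe1, which is needed for lymphatic vessel growth, had 27.0 in lactate and 36.1 in vehicle, and Dlgap2, a postsynaptic scaffold gene, had 35.8 and 47.3. Glis1 was again among the lowest, at 33.4 in lactate and 44.2 in vehicle. Ppm1h, a protein phosphatase gene, and Aff3, a transcription regulator gene, had ratios of 0.85 and 0.86.

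Between the treated libraries, UK5099 was above lactate at Alk, the Ugt1a cluster and Adam12, and at Dpyd, the rate-limiting enzyme of pyrimidine breakdown, which had 47.4 in UK5099 and 32.2 in lactate. Rapgef4, a cyclic AMP-dependent activator of Rap1, had 47.9 in UK5099 and 33.8 in lactate. UK5099 was furthest below lactate at Iqgap2, with a ratio of 0.62 (0.54 to 0.70), and at Sel1l3, with 27.6 in UK5099 and 43.0 in lactate. Elmo1, a partner of Dock proteins in Rac activation, had 24.1 in UK5099 and 37.0 in lactate, and Exoc6b, an exocyst subunit gene, had 25.5 and 38.9. Sorbs2 and Plcb1, at 0.66 and 0.67, completed the low end.

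The functions of the multi-region genes were counted in 23 lists of functions and in families defined by gene name. Because the rule favours long genes, each count is given beside the share among genes of 100 kb or more. Actin cytoskeleton and myosin genes had the largest share of the functional lists, 24 of 36 genes and 17 of the 21 long ones, or 81.0%, against 23.1% of all long genes. Epithelial transcription factors had 8 of 11 long genes, hemidesmosome, integrin and basement membrane genes 11 of 16, and the TGF-beta and BMP pathway 4 of 6. The hemidesmosome, integrin and basement membrane list also holds focal adhesion genes such as Lpp and Tns3. Tight junction and polarity genes had 7 of 12. Of the families defined by gene name, myosins had 6 of 12 long genes, integrins 2 of 7 and laminins 2 of 5. Cadherins, at 1 of 5, and collagens, at 3 of 21 or 14.3%, lay below the 23.1% of all long genes. Synaptic and neuronal adhesion genes had 3 of 30, and axon guidance genes 3 of 27, although the median synaptic gene was 859 kb long. Among long genes the share was thus above that of all long genes for cytoskeletal, adhesion and epithelial regulator lists and below it for the neuronal lists. A share above 23.1% was not particular to these functions. Of the 278 long genes on any functional list, 118, or 42.4%, were multi-region genes. The Wnt list had 7 of 14 long genes, whereas chromatin regulators had 4 of 19. The lists were chosen with earlier results of these data known.

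**Figure D3:**
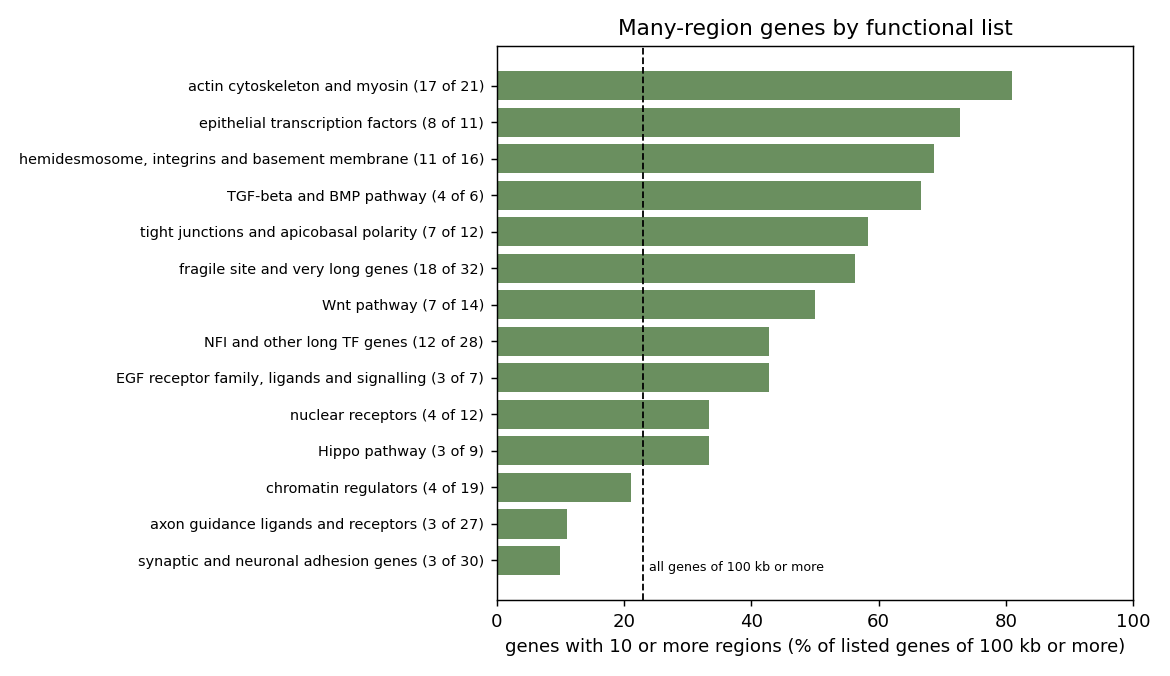
Share of genes of 100 kb or more that had 10 or more merged regions, in percent, by functional list, with the number of such genes in each label. Lists with fewer than 5 such genes and 1 further list are not drawn, actin and myosin genes reached 81.0% and synaptic genes 10%, and the dashed line marks 23.1% of all long genes.

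Against 3.30% of all genes and 0.891% of those under 100 kb, some groups had no gene with 10 or more regions. These were the 30 listed keratins, the 56 respiratory chain, TCA cycle and mitochondrial ribosome genes, the 46 cytosolic ribosome genes, the 34 Hox genes, the 46 olfactory receptors and the 332 microRNA genes. Most of them are short, with a median length of 6.65 kb for the keratins, and the 36 clustered protocadherins had none although 25 of them span 100 kb or more. Of the 42 genes of glycolysis, pyruvate and lactate handling, 1 was among the 623, or 2.38%, near the share over all genes. This was Slc2a1, the glucose transporter GLUT1, with 11 regions in 28585 bp. Its heights were 81.4 in UK5099, 94.0 in lactate and 75.7 in vehicle.

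Of the 10 basal markers, Trp63 and Dst were among the 623, and of the 9 luminal, 6 stromal, 5 endothelial and 4 immune markers 0 were. Over all genes the share was 3.30%, and lists this small cannot show a difference from it. Trp63 and Dst were the only basal markers of 100 kb or more, a length reached by 1 luminal, 3 endothelial and 1 immune marker. The median length of the luminal markers was 5.11 kb. Trp63 (chromosome 16, 25683765 to 25892088, plus strand) had 14 regions and heights of 40.7 in UK5099, 36.2 in lactate and 29.2 in vehicle, a ratio to vehicle of 1.39 (1.25 to 1.56) in UK5099 and 1.24 (1.13 to 1.36) in lactate. Dst, a plakin that ties keratin filaments to hemidesmosomes, had 18 regions and heights of 62.0, 58.7 and 45.7, with ratios of 1.36 and 1.29. Both were higher in each treated library than in vehicle, and above the all-gene medians of 1.15 and 1.18. Itga6, an integrin of hemidesmosomes, lay just under the limit with 9 regions, and Krt5 and Krt14, the basal keratins, had 6 each. The luminal keratin genes Krt8 and Krt18 had 5 and 3.

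Among the 15 hemidesmosome, integrin and basement membrane genes, the median ratio to vehicle was 1.17 in UK5099 and 1.23 in lactate, close to the medians of the 623 genes. The most regions were in Lpp, a LIM protein gene of focal adhesions, with 27, and Tns3, which encodes the focal adhesion protein tensin 3, with 25. Lpp had heights of 51.3 in UK5099, 51.5 in lactate and 41.3 in vehicle, and Tns3 of 46.6, 50.035 and 39.0. The 5 desmosome and adherens junction genes had the median ratios furthest above 1 of the lists with several members, 1.38 in both treatments. Cdh1, which encodes E-cadherin, had 11 regions and heights of 120, 112 and 86.5, and Pkp1, which encodes a desmosomal plakophilin, had 13 regions and heights of 112, 112 and 80.9. Lima1, an actin-bundling LIM protein gene with 11 regions, had 97.3, 84.9 and 66.1. All 5 lay above the median ratio of the 623 genes in both treatments.

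The 24 actin and myosin genes had a median ratio to vehicle of 1.22 in UK5099 and 1.23 in lactate. Macf1, which links actin to microtubules, had 24 regions and heights of 57.4 in UK5099, 55.9 in lactate and 42.7 in vehicle. Myo5b, a myosin of vesicle transport with 21 regions, had 59.5, 60.8 and 54.7, and Myo1e, a membrane-bound myosin with 17, had 73.1, 76.1 and 62.1. The treated libraries were above vehicle in these genes. In the 10 tight junction and polarity genes the medians were 1.14 and 1.17, and Pard3, a core polarity protein with 26 regions, was above them with 45.0, 41.1 and 31.6. Magi1, a junction scaffold with 23 regions, had 45.1, 49.4 and 42.6.

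The 5 genes of the EGF receptor list had median ratios to vehicle of 1.09 in UK5099 and 1.25 in lactate, with 2 and 3 of them above the medians of the 623 genes. Egfr, the EGF receptor gene with 17 regions, had heights of 69.2 in UK5099, 67.5 in lactate and 47.5 in vehicle, ratios of 1.46 and 1.42. Spred2, an inhibitor of Ras signalling, had 56.7, 56.5 and 42.0, and Gab1, an adaptor of receptor kinases, 67.0, 73.1 and 66.6. Egfr and Spred2 were thus higher in both treated libraries, and Gab1 differed little from vehicle in UK5099. The 9 Wnt genes had medians of 1.22 and 1.24, with 5 above the median of the 623 genes in UK5099 and 6 in lactate. Of those with most regions, Tcf7l2, a transcription factor of the pathway, had 19 regions and 31.2, 38.1 and 31.0, and Ror1, a Wnt receptor, had 14 and 42.2, 44.4 and 44.5. Znrf3, which removes Wnt receptors, had 35.2 in UK5099, 28.3 in lactate and 28.3 in vehicle. All 6 TGF-beta and BMP genes lay above the median of the 623 genes in UK5099, with a median ratio of 1.25, among them Smad3, a signal transducer with 17 regions, at 97.2, 102 and 81.7. The 5 Hippo genes had medians of 1.16 and 1.22. Among them Ptpn14, a phosphatase that binds the coactivator YAP, had the most regions, 21, with heights of 70.6, 73.3 and 61.0.

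The 11 epithelial transcription factor genes had median ratios of 1.23 in UK5099 and 1.24 in lactate. Grhl2, a regulator of epithelial junction genes, had 16 regions and heights of 49.6 in UK5099, 56.3 in lactate and 45.1 in vehicle, and Runx1 had 16 and 71.3, 81.7 and 67.4. With Foxp1, these were higher in lactate than in UK5099, and Trp63 was the other way round. The 15 nuclear factor I and other long transcription factor genes had a lower median in UK5099, 1.07, with 2 of 15 above the median of the 623 genes, and 1.21 in lactate. Zfhx3, a zinc finger homeobox gene with 18 regions, had 39.8 in UK5099, 54.4 in lactate and 46.5 in vehicle, and Etv6, an ETS repressor with 17, had 56.8, 66.5 and 61.0. Zbtb16, a zinc finger repressor gene with 21, had 44.2, 52.99 and 39.8.

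The 7 nuclear receptor genes had medians of 1.31 in UK5099 and 1.22 in lactate, and Rxra, the retinoid X receptor alpha gene, had heights of 89.8, 87.0 and 67.1. The 6 chromatin regulator genes had medians of 1.19 and 1.23. Hdac4, a histone deacetylase gene with 13 regions, had 41.7, 40.7 and 34.3. The 3 synaptic genes were the only functional list with several members whose median ratio was below 1 in both treatments, 0.96 and 0.98. Dlgap2 had 35.7 in UK5099, 35.8 in lactate and 47.3 in vehicle, Dlgap1 had 77.8, 82.2 and 78.6, and Erc2, a presynaptic active zone gene, 43.8, 44.7 and 45.5. At 1.5 or more over vehicle in UK5099 the lists described here held Pvrl1 of the junctions, Robo1 and Slit3 of axon guidance and Gmds of the very long genes, and in lactate 0 genes. Over all functional lists, also those not described, 5 of 157 multi-region genes reached that limit in UK5099 and 0 in lactate. Of the 623 genes 4.82% and 1.93% did, and of all genes 9.05% and 6.07%. Pvrl1 and Gmds were named after their values were seen.

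Each library had a called peak in all 623 genes. A merged region can hold several called peaks or none of a given library, and the rule itself rests on called peaks, so the totals are a description. The median number per gene was 10 in UK5099, 11 in lactate and 9 in vehicle. Lactate had more called peaks than vehicle in 508 genes and fewer in 55, with a median difference of 2, and UK5099 had more in 292 and fewer in 210, with a median difference of 0. UK5099 had fewer than lactate in 477 genes. As shares, lactate had more than vehicle in 81.5% of the multi-region genes and fewer in 8.83%, against 36.4% and 9.91% of the genes with under 10 regions. UK5099 had more than vehicle in 46.9% and fewer in 33.7%, against 19.7% and 21.4%. Genes with few regions often have the same number in each library. By the scaling steps the lactate library was the deepest and the UK5099 library the shallowest of the 3, and the part of depth in these numbers was not tested. Heights and called peaks therefore did not order the libraries alike, since UK5099 was above vehicle in height in 532 genes and in peak number in 292.

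Foxp1 had the largest difference, with 26 called peaks in UK5099 and 37 in lactate, against 20 in vehicle. Of its 40 rebuilt regions, 14 were called in all 3 libraries, 9 only in lactate and 7 in UK5099 and lactate. A further 5 were called in lactate and vehicle, 4 only in UK5099 and 1 only in vehicle. Zbtb16 had 20 in lactate against 9 in vehicle, Maml3 28 against 17 and Rad51b 33 against 22. Introns held 37 of the 40 Foxp1 regions and 26 of the 29 rebuilt Maml3 regions. Lactate had the fewest calls relative to vehicle at Wbscr17, a gene of the family that starts O-linked glycosylation, with 4 in lactate against 9 in vehicle, Adam12 with 5 against 9, Agbl4, which encodes a carboxypeptidase acting on tubulin, with 7 against 11, and Antxr1, an anthrax toxin receptor gene, with 10 against 14. Antxr1 and Agbl4 had greater heights in lactate than in vehicle all the same, at 55.3 against 39.5 and 39.0 against 29.6.

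In UK5099 the largest difference above vehicle was at Pard3, with 20 peaks in UK5099 against 12 in vehicle. Bre, a subunit gene of the BRCA1-A complex, had 20 against 13, Camta1, a calmodulin-binding transcription activator gene, 18 against 12, and Fggy, a carbohydrate kinase gene, 15 against 9. Each of these genes also had a greater height in UK5099 than in vehicle. The largest difference below vehicle was at Dlgap1, with 13 in UK5099 against 21 in vehicle, although its heights of 77.8 and 78.6 were nearly equal. Agap1, an ArfGAP gene, had 13 against 19, Anks1, an ankyrin repeat gene, 8 against 14, and Dlgap2 15 against 21. Of these only Dlgap2 had a clearly lower height in UK5099 as well.

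The called peaks of the multi-region genes lay mostly inside the genes and far from their starts. In each of the 3 libraries 85.3% lay inside the gene, whereas for genes with under 10 regions 40.5% did in UK5099, 41.3% in lactate and 40.8% in vehicle. Another 9.17%, 8.93% and 9.20% lay upstream, and 5.56%, 5.80% and 5.54% downstream. The median distance from the gene start was 71.6 kb in UK5099, 68.4 kb in lactate and 70.2 kb in vehicle, against 1.96, 2.29 and 1.52 kb for the other genes. Peaks 50 kb or more downstream of the start made up 60.7%, 59.9% and 60.6%, and peaks within 1 kb of it 7.93%, 8.08% and 8.62%. The 3 libraries thus had similar distributions of distance, which does not show that their peaks lay at the same positions. Gene length limits these distances, so they describe long genes.

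**Figure D4:**
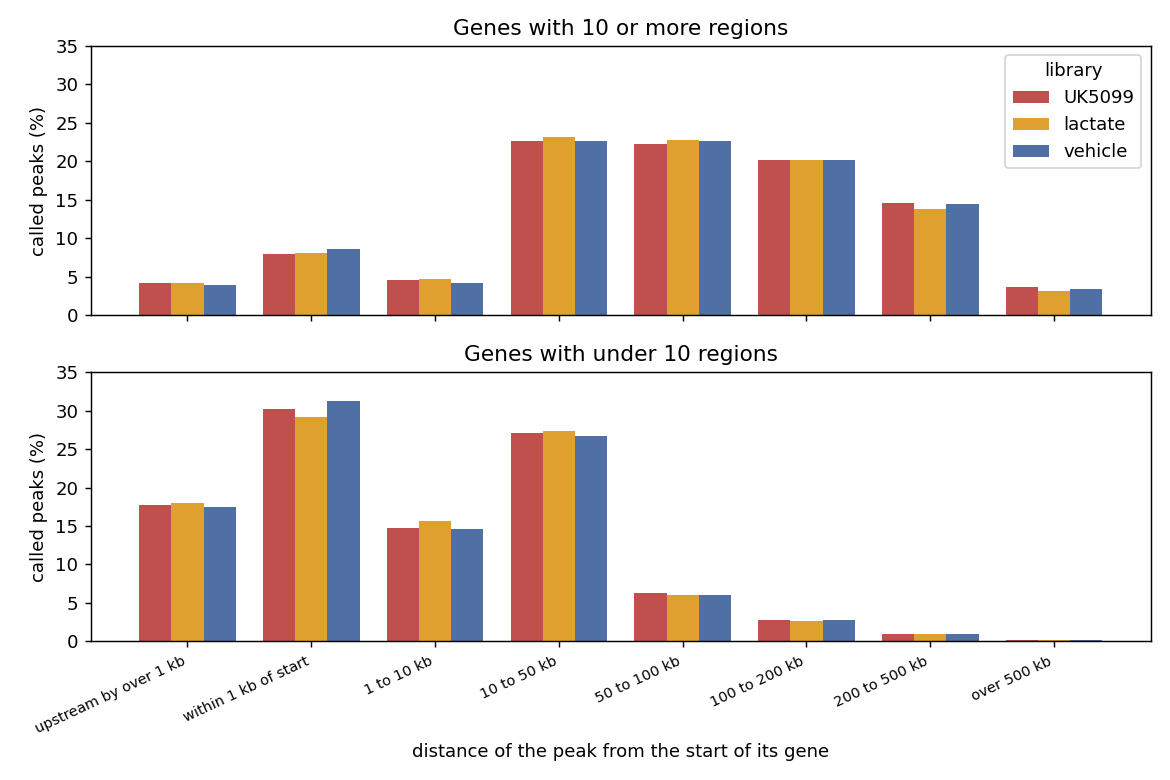
Share of called peaks, in percent, by distance from the start of the gene they are assigned to, for multi-region genes and for genes with under 10 regions, with 1 bar per library. The libraries differ little, and 7.92% to 8.62% of the peaks of multi-region genes lay within 1 kb of the start, against 29.2% to 31.2% for the others.

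A peak within 1 kb of the gene's own start was called for 481 of the 623 genes in UK5099, 500 in lactate and 495 in vehicle. Those shares, 77.2%, 80.3% and 79.5%, were above the 63.3%, 66.0% and 64.6% of the genes with under 10 regions. To place regions against annotation, called positions within 700 bp were grouped into 8559 regions, which matched the deposited number of regions within 1 for 95.7% of the genes. By GENCODE M21 transcripts, 77.3% of these regions lay in introns, 13.97% within 1 kb of any transcript start, 2.52% in exons and 6.17% outside genes. Regions of the other genes were 37.3% intronic and 38.8% near a start. Introns were thus the main place of the regions of the multi-region genes.

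Of the 8559 regions, 55.3% were called in all 3 libraries. A further 13.2% were called in lactate alone, 7.45% in UK5099 alone and 4.65% in vehicle alone. Regions called in both treated libraries and not in vehicle made up 8.34%, as many as those called in lactate and vehicle and not in UK5099, and those in UK5099 and vehicle 2.69%. Regions near a transcript start were called in all 3 libraries in 74.2% of cases, and regions away from starts in 52.2%. For regions of the other genes the shares were 79.9% and 48.4%. At Iqgap2, whose height was low in UK5099, 6 of 14 regions were called in all libraries, 5 in lactate and vehicle, 3 in lactate alone and 0 in UK5099 alone, and the Iqgap2 sequence printed above is one of the 5. At Trp63, of 15 rebuilt regions, 5 were called in all libraries, 4 only in UK5099, 3 only in lactate and 1 only in vehicle. Another 1 was called in UK5099 and lactate, and 1 in lactate and vehicle.

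AP-1 letters (TGANTCA, either strand) were found in 40.3% of the 7363 regions of multi-region genes away from transcript starts, in windows of 300 bases. The share was 39.3% in such regions of the other genes, 29.4% in regions of all genes at any place, and 9.05% in windows moved 1 kb downstream. The AP-1 share was therefore higher under the peaks than beside them, and away from starts it was much the same in multi-region genes as in the others. Near a start the share was 15.4%, against 9.11% in the other genes. For the other motifs, TEAD letters (GGAATG) were in 20.8% of the regions of multi-region genes away from starts, against 20.1% in the other genes, and in 15.3% of the moved windows. GRHL letters (AACNNGTT) were in 6.76% against 6.77%, with 4.39% in moved windows, and KLF letters (GGGNGTGG) in 12.7% against 12.8%, with 9.06%. The CTCF core (CCCTC) was in 57.8% against 58.5%, with 53.9% in moved windows, and the p53 family motif in 1.47% against 1.42%, with 1.39%. Away from starts these shares thus lay within 1 percentage point of each other in both groups of genes. Over all regions away from starts, the p53 family share was near that of the moved windows. In multi-region genes it was 2.88% (exact binomial interval 1.68 to 4.57) of regions called only in UK5099, against 1.18% in their moved windows. Such regions of the other genes had 2.36% (1.72 to 3.14), against 1.20%. Regions called only in lactate had 1.26% against 1.07% in multi-region genes. There the share lay below the moved windows in regions called in all 3 libraries, 1.38% against 1.64%, and in UK5099 and vehicle, 0.48% against 1.44%. Both strands were searched, and matches of different motifs that overlap were each counted.

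The AP-1 share differed with the libraries in which a region was called. Among regions away from starts it was 45.2% (exact binomial 95% interval 41.1 to 49.3) of the 591 regions called only in UK5099, and 24.5% (21.9 to 27.3) of the 1031 called only in lactate. In the 373 called only in vehicle it was 38.6% (33.6 to 43.8), and in the 3847 called in all 3 libraries 45.6% (44.0 to 47.2). Regions called only in lactate thus had the lowest share, and the interval of those called only in UK5099 overlapped that of the regions called in all. Regions called in UK5099 and lactate had 35.9%, those in lactate and vehicle 32.2%, and those in UK5099 and vehicle 48.6%. The regions of the other genes showed 47.5% for UK5099 alone, 25.4% for lactate alone, 38.4% for vehicle alone and 43.9% for all 3, so lactate alone was lowest there too. The intervals treat regions as independent and cover counting error only, and the lower inferred depth of the UK5099 library and the greater inferred depth of the lactate library ran alongside this difference, in which their part was not tested.

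**Figure D5:**
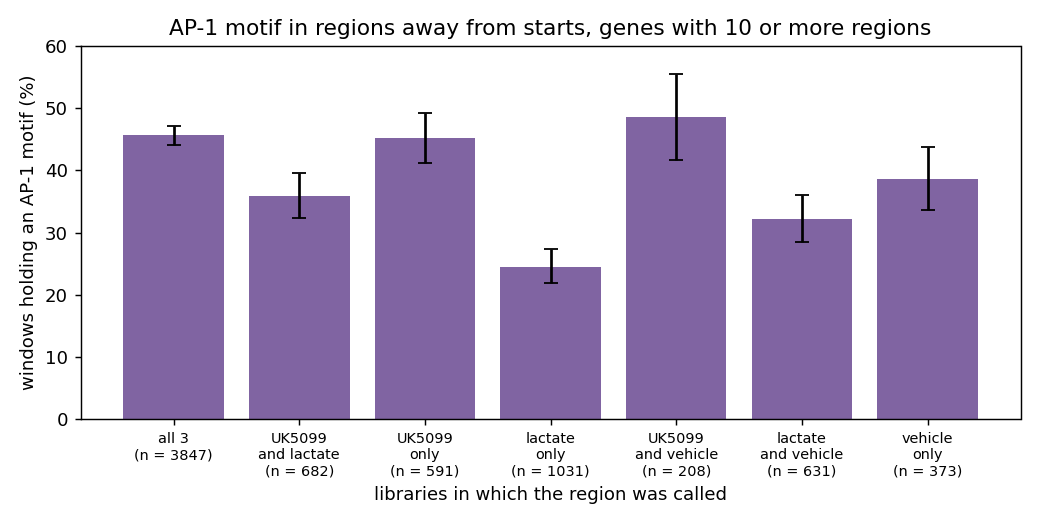
Share of 300-base windows away from transcript starts that hold TGANTCA on either strand, in percent, by the libraries in which the region was called, for multi-region genes, with n the number of regions. Error bars are exact binomial 95% intervals over regions, and the share is lowest, 24.5%, for regions called only in lactate.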

How the data were processed

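Chromatin accessibility was measured in 3 ATAC-seq libraries of organoids, grouped by the treatment in the labels. Per the study's methods, read pairs were aligned with BWA, duplicates and ambiguous reads were removed, reads were lengthened in silico and binned, and peaks were called in each library without a control. The tools named in the submitters' processing notes are BWA and MACS3, and the build is mm10. The study's methods name an earlier MACS version, and which version made the peaks is not known. Those methods also describe a comparison of replicates within conditions, whereas the labels used here give 1 library per treatment. A shift of reads for the transposase is not mentioned in the sources read.

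The authors deposited a gene table whose signal values are average peak heights, that is coverage at the top of each merged region averaged over the regions of a gene, together with the number of merged regions and the text positions of called peaks. Heights times the number of regions were whole multiples of a step (1 in UK5099, 0.471 in lactate, 0.575 in vehicle) within 0.05 for at least 99.8% of the multi-region genes. The steps gave stacked reads and, if the scaling equalised depth, relative depth. These are coverage and not fragment counts, so no count test was run. Columns of a further library, with 39900 peak entries, were left out.

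Ratios used no pseudocount, in genes above 0 in both libraries, with the study's limits of 1.5 and 0.5. Peak positions came from gene coordinates and deposited distances, and positions within 700 bp were grouped. Sequence came from the RefSeq GRCm38.p6 genome and annotation from GENCODE M21, both on the build of the table. The genes and lists were chosen with earlier results of these data known. Some genes and 1 list are not reported here. Named genes were the 12 with most regions, the 6 highest and 6 lowest ratios per comparison, the 4 largest differences in called peaks each way, up to 3 leading genes per described list, and Trp63, Krt5, Krt14, Krt8, Krt18 and Itga6. In data simulated with counting error only, 50 of 50 genes changed 2-fold passed the upper limit in each comparison. Such data hold no variation between libraries, so this checks the calculation and not the reliability of the limit. Alternatives were a pseudocount, a height filter, other scalings, other limits, called peaks and other region minimums. Python 3.11.15, numpy 2.4.6, pandas 2.3.3, scipy 1.17.1 and matplotlib 3.10.9 were used.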

Additional observations from a re-analysis of the deposited data

How the results depend on the processing

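The medians depended on the scaling of the libraries. After median-of-ratios scaling over all genes, the median ratio of the multi-region genes was 1.0248 for UK5099 over vehicle and 1.0363 for lactate over vehicle, and the counts at 1.5 or more were 9, 0 and, for UK5099 over lactate, 7. Scaled to the same total, the medians were 1.0202 and 1.0367 and the counts 8, 0 and 6. With called peaks as the measure the median was 1 for UK5099 over vehicle and 0.83333 for UK5099 over lactate. With 15 or more regions the counts were 6, 3 and 0, and with 8 or more they were 24 for lactate over vehicle and 5 for UK5099 over lactate, with 1 at 0.5 or less there. A pseudocount at 10% of the median height left 3 genes for lactate over vehicle, and a filter at the lower quartile of height left 0 for UK5099 over lactate. With the inverse of 1.5 as the lower limit, 3, 1 and 5 genes were at or below it. The share of peaks inside the gene was 90.518% in UK5099, 89.962% in lactate and 90.383% in vehicle with 15 or more regions. Of all alternative values of these results, 52 stayed close to the reported value and 26 moved. The cause of these moves was not tested, beyond fewer genes being taken with a higher minimum.

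Settings for the rebuilt regions were added after the data were seen. With positions grouped within 500 or 1000 bp, 53.5% and 57.4% of regions were called in all 3 libraries, and 47.2% and 43.7% of those away from starts held AP-1 letters. In windows of 200 bases the AP-1 share was 37.4% for regions called only in UK5099 and 39.9% for those called in all. With 1 library per treatment no library could be left out. No paired analysis was possible because each treatment has 1 library and no replicate numbers. Depth was inferred to be lowest in UK5099, and its part in which regions were called was not tested. Counting intervals hold no variation between cultures.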
